A study of Mus musculus with 6 samples.

Results

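The JAK, STAT, SOCS, PIAS and IRF gene families were examined in F4/80high and F4/80low tumor-associated macrophages (TAMs) of a mouse melanoma. The genes were 4 Janus kinases (*Jak1*, *Jak2*, *Jak3* and *Tyk2*), 6 STATs (*Stat2*, *Stat3*, *Stat4*, *Stat5a*, *Stat5b* and *Stat6*), 8 genes of the SOCS family (*Cish* and *Socs1* to *Socs7*), 4 PIAS genes (*Pias1* to *Pias4*) and 8 interferon regulatory factors (*Irf1*, *Irf2*, *Irf3*, *Irf4*, *Irf5*, *Irf7*, *Irf8* and *Irf9*). They were taken by symbol, with earlier results of these data known, and make up 30 of the 23424 genes in the tables. All 30 were found in each of the 6 libraries and passed the filter on low counts. The lowest count was 73 reads, of *Socs1* in F4/80high replicate 3.

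The tumors were made by intradermal injection of YUMM1.7, a melanoma line of mouse origin, into untreated wild-type female C57Bl/6J mice aged 8 weeks at induction. On day 21, live CD45+ CD11b+ cells, gated as lineage-negative in the study's methods, with high or low surface F4/80, a macrophage protein encoded by *Adgre1*, were sorted from pooled tumors in 3 independent experiments, so each library is a pool and same-numbered libraries form a pair. Poly-A RNA libraries of F4/80high cells gave 30292061, 43604373 and 16045281 counted reads for replicates 1, 2 and 3, and those of F4/80low cells 32967733, 32560608 and 16204810. Replicates 1 and 2 formed batch 1 and replicate 3 formed batch 2, as drawn in the study's own principal component plot.

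Cytokine receptors of classes I and II have no enzyme of their own. They rely on bound JAKs, which phosphorylate the receptor and then the STATs, and these move to the nucleus and switch on genes. SOCS proteins, themselves often STAT targets, shut the receptor off, PIAS proteins restrain STATs in the nucleus, and IRFs carry interferon and pattern-receptor signals to DNA. In macrophages these routes are known to set the responses to interferons, IL-4, IL-10 and GM-CSF.

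The sort label was compared with its own gene first. *Adgre1* stood at 273, 539 and 360.3 CPM (counts scaled to 1000000 of the normalized library size) in the F4/80high libraries, in the order of replicates, and at 243, 327 and 183 CPM in F4/80low. It was higher in F4/80high in each pair, but the groups overlapped, since the first F4/80high replicate was under the second F4/80low one. The log2 fold change came to 0.67 (SE 0.30, edgeR adjusted p = 0.664). Throughout, a fold change is F4/80high over F4/80low from edgeR's quasi-likelihood fit with batch and subset over 14645 protein-coding genes, and a call needs both an adjusted p (Benjamini-Hochberg) under 0.05 and a log2 fold change beyond 1 in size.

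None of the 30 genes was called, and neither was any other gene (0%, 0 of 14645). At an unadjusted p under 0.05, 1 of the 30 passed, *Jak2*, against 7.6% of all genes tested (1113 genes). With a block for the experiment (the replicate number) and no batch term, edgeR called 0 of the 30 and 0.519% of all genes (76), and 3 of the 30 had an unadjusted p under 0.05, *Jak2*, *Stat2* and *Irf1*, against 9.91% of all genes. DESeq2 with batch called 0 of the 30 and 1.02% of all genes (150). DESeq2 with the block called 1 of the 30, *Jak2*, and 2.43% of all genes (356).

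*Jak2* encodes the kinase bound by the receptors for GM-CSF, IL-3, IL-5 and interferon gamma. Its gene (ENSMUSG00000024789) spans chr19:29251828-29313080 on the forward strand of GRCm38. It measured 99.6, 65.2 and 209.8 CPM in F4/80high and 234, 106 and 453 CPM in F4/80low. Each F4/80low library was above the F4/80high library of its own pair, while across experiments the groups overlapped, with F4/80high replicate 3 above F4/80low replicate 2. The log2 fold change came to -1.07 (SE 0.32, unadjusted p = 0.00837, edgeR adjusted p = 0.504), and the pairs gave -1.23, -0.70 and -1.11. With the block it was -1.02 (SE 0.20, edgeR adjusted p = 0.0716). DESeq2 gave an adjusted p of 0.0943 with batch and of 7.52e-04 with the block. *Jak2* ranged from -1.34 to -0.69 over 20 alternative settings, the latter without F4/80low replicate 1, and was called in 1 of them.

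**Figure D1:**
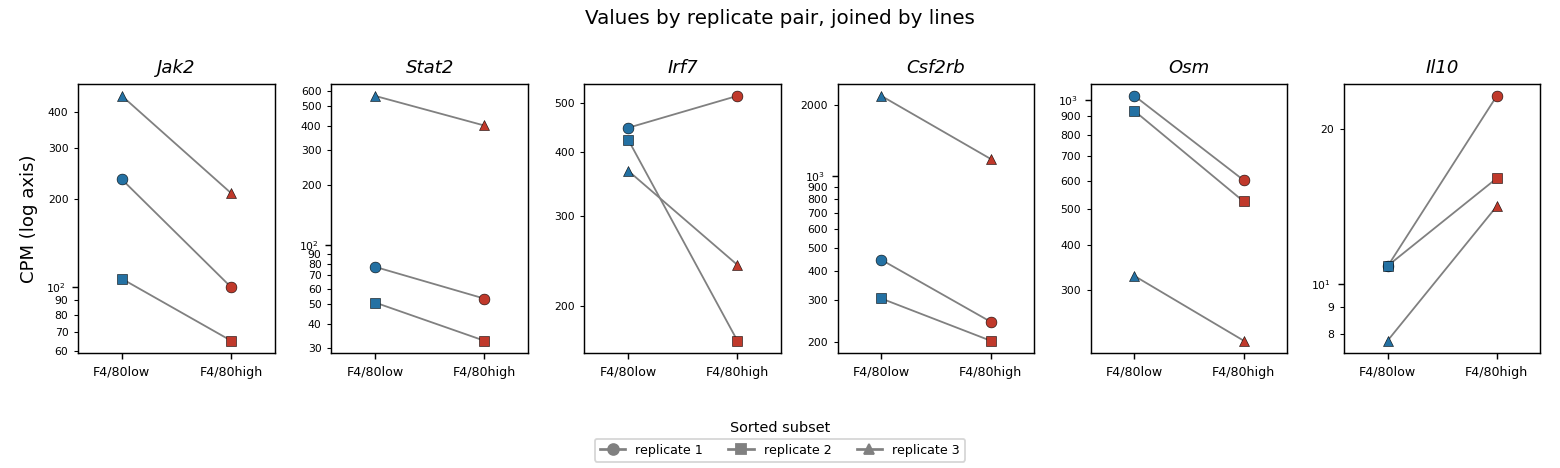
CPM on log axes in F4/80low (left of each panel) and F4/80high (right) for *Jak2*, *Stat2*, *Irf7*, *Csf2rb*, *Osm* and *Il10*, with the libraries of a pair joined by a line. The lines of *Jak2*, *Stat2*, *Csf2rb* and *Osm* go down in 3 of 3 pairs and those of *Il10* go up, while *Irf7* goes up in pair 1 and down in the others.

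The other kinases had fold changes within 1 SE of 0. *Jak1*, used by interferon, IL-6 and common gamma chain receptors, was the kinase with the highest level. It measured 329.6, 265 and 837 CPM in F4/80high and 363, 258 and 802 CPM in F4/80low, so that the subsets overlapped and the third replicate of each was the highest. Its log2 fold change came to -0.02 (SE 0.23, edgeR adjusted p = 0.993). *Tyk2*, the partner of *Jak1* at the type I interferon receptor, had -0.09 (SE 0.31), with pairs at -0.56, 0.35 and 0.17. *Jak3*, the kinase of the common gamma chain, had 0.13 (SE 0.28), with pairs at 0.48, 0.24 and -0.40.

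Among the STATs, 5 of 6 fold changes lay below 0, with a median of -0.35 on the log2 scale. *Stat6*, which carries the IL-4 and IL-13 signal, had the highest mean level of them per length over the 6 libraries and in batch 1, while *Stat2* did in batch 2. *Stat6* measured 182, 224 and 69.0 CPM in F4/80high and 275, 165 and 56.2 CPM in F4/80low. The subsets overlapped, with pair 1 lower and pairs 2 and 3 higher in F4/80high, and the log2 fold change stood at 0.02 (SE 0.26, edgeR adjusted p = 0.994).

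*Stat2*, the partner of *Irf9* in the factor that answers type I interferon, measured 53.5, 32.8 and 400.1 CPM in F4/80high and 77.4, 51.1 and 565 CPM in F4/80low. The F4/80high library was the lower one in each pair. The subsets overlapped, also within batch 1, where F4/80high replicate 1 was above F4/80low replicate 2. Replicate 3 of both subsets stood far above the rest. The log2 fold change came to -0.55 (SE 0.27, edgeR adjusted p = 0.687), with pairs at -0.53, -0.63 and -0.50, and with the block the unadjusted p was 0.0146 (edgeR adjusted p = 0.325). *Irf9* itself had pairs at -0.24, -0.35 and -0.30.

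*Stat3*, which carries IL-6 and IL-10 signals, had -0.30 (SE 0.26) and was lower in F4/80high in 3 of 3 pairs. *Stat5b* also was, at -0.46 (SE 0.23, unadjusted p = 0.0755, edgeR adjusted p = 0.693). Its paralog *Stat5a*, which lies beside it on chromosome 11, had -0.40 (SE 0.39) with pairs at 0.31, -0.07 and -1.58. That value rests on pair 3, where *Stat5a* had 89 reads in F4/80high and 261 in F4/80low. Reads of the 2 genes could have been split by the counting, so both values are uncertain to that extent. *Stat4*, the STAT of IL-12, had -0.20 (SE 0.39), and 26.7% of its exon bases are shared with *Gm28177* on the same strand.

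The SOCS family had 6 of 8 fold changes below 0, with a median of -0.34. *Socs3*, the inhibitor of IL-6-type receptors, had the highest level of all 30 genes in the mean over the 6 libraries and in batch 1, but not in batch 2. It measured 624, 628 and 202 CPM in F4/80high and 788, 358 and 153 CPM in F4/80low. Pair 1 was lower and pairs 2 and 3 were higher in F4/80high, and the log2 fold change stood at 0.22 (SE 0.30, edgeR adjusted p = 0.891). *Socs1*, the inhibitor of interferon receptors, had -0.05 (SE 0.39) with pairs at 0.47, -0.90 and -0.13. *Cish*, an inhibitor downstream of STAT5, had -0.42 (SE 0.39), and its pairs of -0.04, -1.64 and 0.02 show that replicate 2 alone set that value. *Socs6* was the member with the highest fold change, 0.50 (SE 0.25, unadjusted p = 0.076, edgeR adjusted p = 0.693), with pairs at 0.02, 0.49 and 0.99. In batch 1 alone *Socs6* fell to 0.26, below *Jak3* at 0.38 and *Irf8* at 0.37. *Socs7* had -0.49 (SE 0.39), *Socs2* -0.41 (SE 0.28), *Socs5* -0.35 (SE 0.33) and *Socs4* -0.33 (SE 0.27), and none of these had one direction in all pairs.

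The 4 PIAS genes had a median of 0.05, about as close to 0 as that of the 4 kinases (-0.06). With the block these medians were 0.05 and -0.01. *Pias1*, the most abundant PIAS gene, measured 64.7, 78.1 and 231 CPM in F4/80high and 74.2, 64.0 and 239 CPM in F4/80low. Values of the same replicate were alike in both subsets, and the log2 fold change stood at 0.01 (SE 0.21, edgeR adjusted p = 0.995). *Pias2* had 0.08 (SE 0.21) and *Pias4* -0.06 (SE 0.22). *Pias3* had 0.39 (SE 0.37), from a difference of 1.54 in pair 3 and of -0.08 and -0.25 in pairs 1 and 2.

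Of the 8 IRFs, 6 had fold changes below 0, with a median of -0.32. *Irf7*, the factor that amplifies type I interferon, had the highest mean per length over the 6 libraries, though *Irf2* was above it in batch 2 with the deposited lengths. *Irf7* measured 516, 171 and 240.4 CPM in F4/80high and 447, 423 and 368 CPM in F4/80low. F4/80high replicate 1 was the highest library of all 6, the other F4/80high libraries were the lowest, and the subsets overlapped for that reason. The log2 fold change came to -0.43 (SE 0.36, edgeR adjusted p = 0.79), and the pairs gave 0.21, -1.31 and -0.61. It became -1.03 when F4/80high replicate 1 was left out and -0.14 when F4/80high replicate 2 was.

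*Irf1*, the interferon gamma target that activates antigen presentation genes, measured 237, 88.2 and 206 CPM in F4/80high and 261, 175 and 279.7 CPM in F4/80low. It was lower in F4/80high in 3 of 3 pairs (-0.14, -0.99 and -0.44), with overlapping subsets and a log2 fold change of -0.43 (SE 0.35, edgeR adjusted p = 0.79), which became -0.93 when F4/80high replicate 1 was left out and -0.15 when F4/80high replicate 2 was. *Irf8*, needed for monocyte and cDC1 development, had 0.29 (SE 0.25), with the F4/80high library the higher one in each pair, but it fell to 0.068 when F4/80high replicate 1 was left out, and to 0.16 when F4/80low replicate 2 was. *Irf5*, an activator of inflammatory cytokine genes, had -0.37 (SE 0.23), and *Irf2*, a repressor that competes with *Irf1*, had -0.35 (SE 0.25). *Irf4*, a factor of alternatively activated macrophages and of dendritic cells, had -0.15 (SE 0.38) with its pairs at -0.15, -0.15 and -0.14, and *Irf3*, the factor of the first interferon wave, had 0.06 (SE 0.22).

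**Figure D2:**
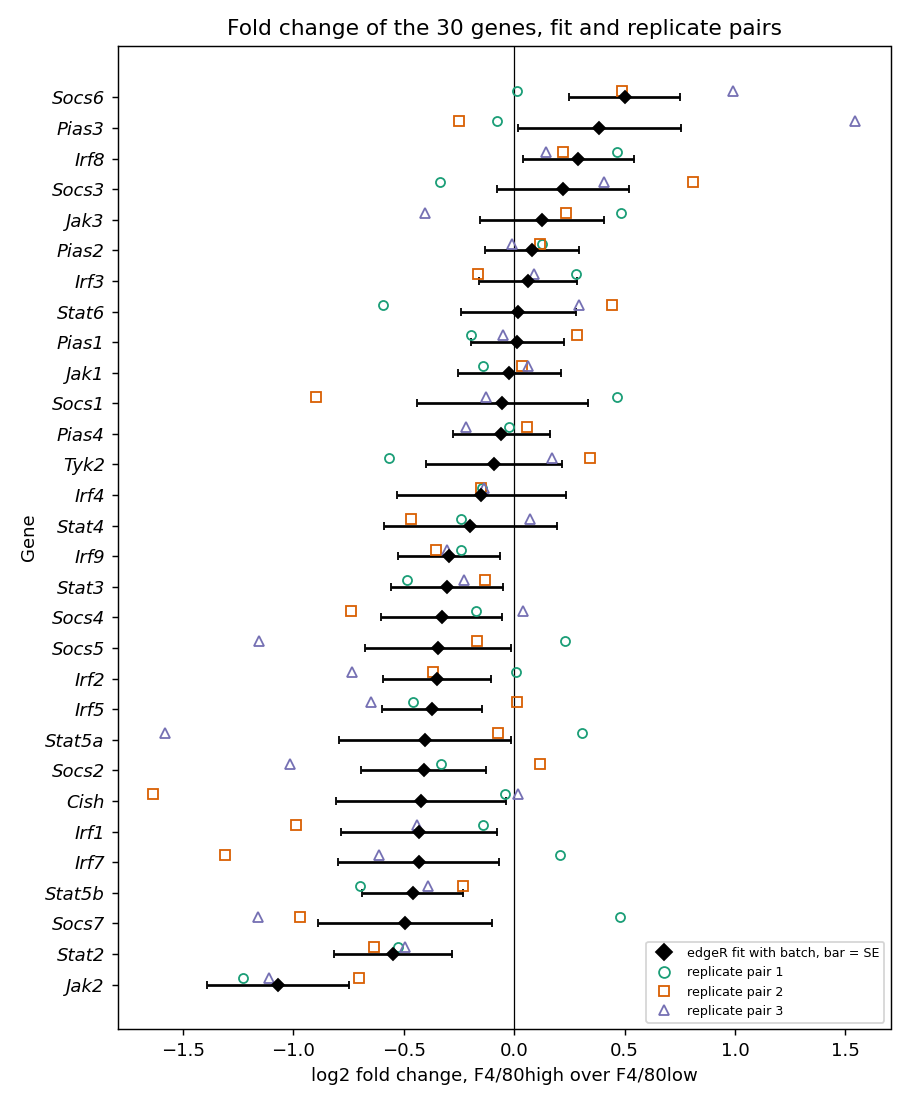
log2 fold change of F4/80high over F4/80low for the 30 genes, ordered by the edgeR fit with batch (diamonds, bars are 1 SE), with the log2 ratio of CPM in each replicate pair (open symbols). *Jak2* lies lowest at -1.07 and *Socs6* highest at 0.50, and the 3 symbols of *Irf7*, *Cish*, *Stat5a* and *Pias3* lie far apart.

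Across the 30 genes, 21 fold changes lay below 0 and 9 above (70.0% below), against 49.2% below 0 among all genes tested. The median was -0.25, against 0.01 for all genes, and the pair medians were -0.14, -0.16 and -0.18. With 1 library left out, the median of the 30 ranged from -0.42 to -0.073. Of the members, 7 were lower in F4/80high in 3 of 3 pairs (*Jak2*, *Stat2*, *Stat3*, *Stat5b*, *Irf1*, *Irf4* and *Irf9*), which is 23.3%, against 15.9% of all genes. The 2 members higher in 3 of 3 pairs, *Socs6* and *Irf8*, compare with 16% of all genes. No member had CPM values that separated the subsets without overlap, as 5.2% of all genes did.

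Each library moved these values. Without F4/80high replicate 1, 8 of the 30 had an unadjusted p under 0.05, against 13.8% of the genes then tested, and none was called, though 57 of all genes were. They were *Jak2*, *Irf7*, *Socs7*, *Irf1*, *Stat2*, *Cish* and *Irf2*, all lower in F4/80high, and *Socs6*, which was higher. The lowest edgeR adjusted p among them was 0.142, of *Jak2* at -1.27 (SE 0.36), followed by *Irf7* at -1.03 (SE 0.29, edgeR adjusted p = 0.143). The median of the 30 genes was then -0.42, and it was -0.073 without F4/80low replicate 1 and between these values without each of the others. Without F4/80low replicate 2, 3 of the 30 had an unadjusted p under 0.05, against 8.01% of the genes then tested.

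The 30 genes, like all genes tested, had larger differences between the batches than between the subsets. The batch term of the same fit was called for 15 of the 30 genes, 11 higher and 4 lower in batch 2, against 38% of all genes. The median absolute log2 difference of the members was 1.02 between batches and 0.32 between subsets, against 1.22 and 0.35 for all genes tested. *Stat2* was 3.17 higher in batch 2 on the log2 scale, *Socs7* 2.36 and *Socs4* 2.08, while *Socs1*, *Socs3*, *Stat6* and *Jak3* had -2.11, -1.77, -1.76 and -1.25. All 4 kinases were called, and of the IRFs only *Irf2* was, at 1.82. Batch 2 holds 1 library of each subset, and its libraries also had 17.1% and 16.1% of their reads in 3 genes, against 0.378% to 0.609% in batch 1. Batch and experiment cannot be told apart.

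**Figure D3:**
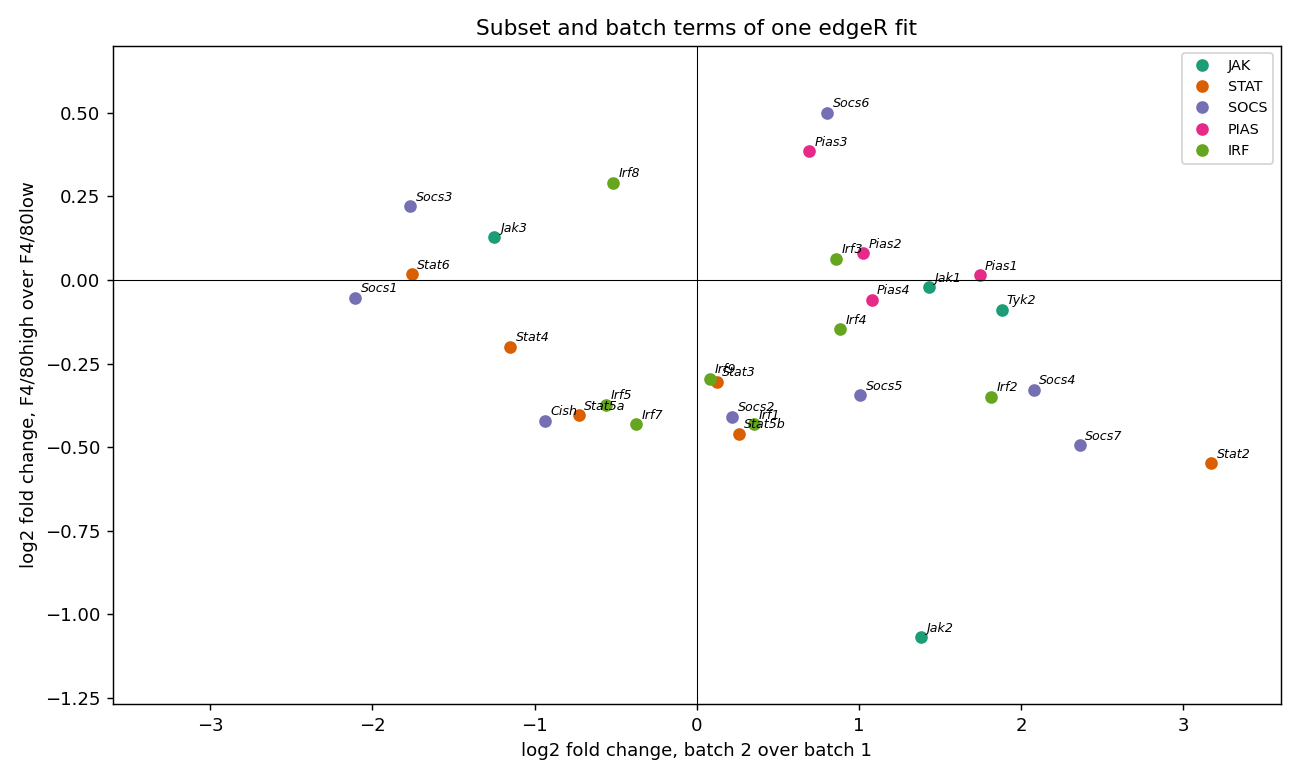
Batch term (x axis, log2, batch 2 over batch 1) against subset term (y axis, log2, F4/80high over F4/80low, drawn on a wider scale) of one edgeR fit for the 30 genes, colored by family. The points span -2.11 to 3.17 between batches and -1.07 to 0.50 between subsets.

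Levels between genes were compared as TPM (reads per gene length, scaled to a sum of 1000000). *Socs3* had the highest mean over the 6 libraries, 538 ± 319 TPM in F4/80high and 485 ± 408 in F4/80low (SD, n = 3 each), followed by *Irf7* at 325 ± 239.9 and 414 ± 119, and *Irf5* at 217 ± 87.7 and 268 ± 98.6. This order is that of batch 1, where *Socs3* had a mean of 694 TPM. In batch 2 *Socs3* had a mean of 147 TPM and stood below *Irf2* (291), *Jak1* (270.0), *Stat2* (259), *Irf7* (238) and *Jak2* (155). Among the kinases *Jak1* was above *Jak2* in 6 of 6 libraries, *Jak2* above *Tyk2* in 5, and *Tyk2* above *Jak3* in 3. *Stat6*, *Stat2* and *Stat3* had means of 118, 114 and 96.3 TPM and no fixed order. They had 160.3, 41.1 and 104 TPM in batch 1 and 34.0, 259 and 80.1 TPM in batch 2. Each was above *Stat5b* in the mean of all 6 libraries. These values order genes within a batch and do not compare batches, since *Stat3* had 296 CPM in batch 1 and 322 CPM in batch 2. In the SOCS family *Socs3* exceeded *Socs1*, and *Socs1* exceeded *Cish*, in 6 of 6 libraries, while *Cish* was above *Socs6* in 3. *Pias1* was above the other PIAS genes on average and above *Pias2* in 6 of 6. The mean levels of the IRFs ran from *Irf7* to *Irf4*, with *Irf2* above *Irf1* in 3 libraries and *Irf9* above *Irf3* in 3. *Socs7* had the lowest mean, 5.98 TPM, and 63.3% of all genes tested were at or above it.

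These levels lean on the deposited gene lengths, which differ from the merged exon length of the GENCODE annotation for 13 of the 30 genes. *Irf2* has a deposited length of 2484 bases against 7396, and its mean falls from 174 to 68.3 TPM with the longer length, moving it below *Irf1* and *Irf8*. *Socs1* moves from 71.4 to 34.5 TPM and is then above *Cish* in only 3 of 6 libraries, and *Pias1* is above *Pias2* in 5. The gene with the highest mean of each family was the same with either length.

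**Figure D4:**
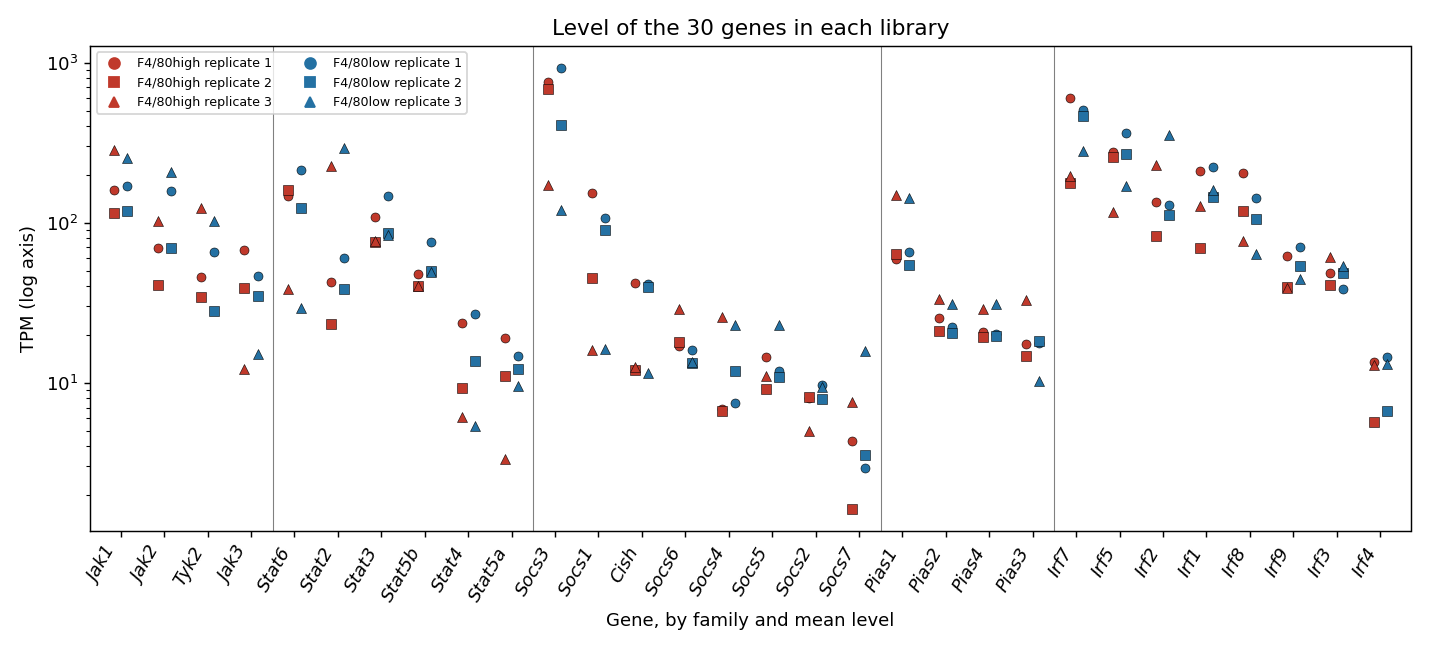
TPM on a log axis in each library for the 30 genes, ordered within each family by mean level, with F4/80high in red, F4/80low in blue and one symbol per replicate. The triangles of replicate 3 often stand apart from the rest, above them for *Stat2* and below them for *Socs3* and *Stat6*, and red and blue overlap for each gene except *Stat5b* (red below blue) and *Socs6* (red above blue), whose CPM values do overlap.

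STATs and IRFs bind known motifs, and promoter windows of 250 bases before to 50 after the transcript start (RefSeq, GRCm38.p6) were found for 24 of the 30 genes. The GAS motif of STAT dimers was searched as TTCNNNGAA, which reads the same on both strands, and the core of the interferon-stimulated response element (ISRE) as GAAA, then any 2 bases, then GAAA, on both strands. Of all 32851 windows in that table, 3.44% held the ISRE core and 8.30% the GAS motif, and by gene the shares were 3.99% and 9.55%. Among the 24 genes, 4 held the ISRE core (*Stat2*, *Stat4*, *Socs1* and *Irf2*) and 5 the GAS motif (*Cish*, *Socs3*, *Irf1*, *Irf2* and *Irf8*). The windows of the genes with the smallest p in the block fit are shown whole, with matches in capitals. That of *Jak2* has none, that of *Stat2* has an ISRE core on the opposite strand, and that of *Irf1* has a GAS motif.
*Jak2* (chr19:29251553-29251852, forward strand): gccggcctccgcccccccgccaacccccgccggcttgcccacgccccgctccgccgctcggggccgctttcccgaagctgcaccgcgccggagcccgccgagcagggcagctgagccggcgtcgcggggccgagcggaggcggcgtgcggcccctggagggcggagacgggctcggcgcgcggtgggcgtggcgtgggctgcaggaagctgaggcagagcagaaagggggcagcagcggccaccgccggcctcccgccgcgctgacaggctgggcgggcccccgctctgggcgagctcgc
*Stat2* (chr10:128270248-128270547, forward strand): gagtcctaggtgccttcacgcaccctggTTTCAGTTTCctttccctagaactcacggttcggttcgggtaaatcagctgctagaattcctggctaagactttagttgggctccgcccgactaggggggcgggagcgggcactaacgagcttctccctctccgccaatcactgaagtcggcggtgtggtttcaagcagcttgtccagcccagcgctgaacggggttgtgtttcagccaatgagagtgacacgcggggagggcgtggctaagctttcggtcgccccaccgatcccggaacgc
*Irf1* (chr11:53769764-53770063, forward strand): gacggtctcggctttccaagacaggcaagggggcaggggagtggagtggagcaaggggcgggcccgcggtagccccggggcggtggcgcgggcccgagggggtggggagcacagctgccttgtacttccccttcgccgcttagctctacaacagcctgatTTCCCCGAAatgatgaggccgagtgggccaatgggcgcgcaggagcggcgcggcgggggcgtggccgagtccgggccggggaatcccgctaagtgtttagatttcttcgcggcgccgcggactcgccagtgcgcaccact

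The matches in the feedback inhibitors are shown with the bases around them, since these genes are classic STAT targets. *Socs1* has 2 ISRE cores that overlap, *Socs3* 1 GAS motif, and *Cish* 2 GAS motifs side by side at the start. *Irf2* and *Irf8* follow, as the IRFs with more than 1 match. A match describes the letters and not a bound site.
*Socs1* (chr16:10785579-10785644, reverse strand): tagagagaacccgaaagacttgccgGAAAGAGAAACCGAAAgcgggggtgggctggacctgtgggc
*Socs3* (chr11:117969487-117969545, reverse strand): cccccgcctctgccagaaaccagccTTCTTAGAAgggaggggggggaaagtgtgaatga
*Cish* (chr9:107296634-107296703, forward strand): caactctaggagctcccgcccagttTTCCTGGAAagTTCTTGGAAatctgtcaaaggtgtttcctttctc
*Irf2* (chr8:46739495-46739554, forward strand): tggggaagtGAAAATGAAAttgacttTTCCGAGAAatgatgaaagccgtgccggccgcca
*Irf8* (chr8:120736162-120736238, forward strand): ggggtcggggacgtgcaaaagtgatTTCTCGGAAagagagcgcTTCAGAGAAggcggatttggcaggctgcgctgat

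Genes with a match had subset fold changes on both sides of 0. The 4 with an ISRE core ranged from -0.55 (*Stat2*) to -0.05 (*Socs1*), and the 5 with a GAS motif from -0.43 (*Irf1*) to 0.29 (*Irf8*).

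The receptors in front of the kinases were listed as 37 chains, of which 36 were tested, 16 above and 20 below 0, with a median of -0.08 and 0 called. *Csf2rb*, the shared beta chain of the GM-CSF, IL-3 and IL-5 receptors, through which *Jak2* acts, measured 244, 203 and 1182 CPM in F4/80high and 445, 306 and 2175 CPM in F4/80low. It was lower in F4/80high in each pair, with a log2 fold change of -0.79 (SE 0.24, unadjusted p = 0.00831, edgeR adjusted p = 0.504). *Il5ra*, the IL-5 receptor of eosinophils, had -1.30 (SE 0.41) and *Csf3r*, the G-CSF receptor of neutrophils, -1.21 (SE 0.54). Both were lower in F4/80high in each pair, *Il5ra* at 6.11, 4.72 and 3.46 CPM against 16.4, 19.4 and 4.22 CPM. *Il2rb*, the IL-2 receptor chain of lymphocytes, had 0.85 (SE 0.43), and *Lifr* 0.67 (SE 0.30). *Ifngr1*, the most abundant chain per length, had -0.11 (SE 0.25).

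Of 22 ligands in the tables, 21 were tested, 8 above and 13 below 0, with 0 called. *Osm*, an IL-6-type cytokine, measured 602, 526 and 218 CPM in F4/80high and 1025, 932 and 329 CPM in F4/80low, lower in F4/80high in each pair, at -0.73 (SE 0.21, unadjusted p = 0.00746, edgeR adjusted p = 0.504, DESeq2 adjusted p = 0.0286). *Il10* measured 23.2, 16.0 and 14.2 CPM in F4/80high and 10.8, 10.8 and 7.76 CPM in F4/80low, so that each F4/80high library was above each F4/80low library. Its log2 fold change came to 0.86 (SE 0.30, unadjusted p = 0.0171, edgeR adjusted p = 0.534). *Ifng* had 1.11 (SE 0.52) and *Ebi3* -0.90 (SE 0.42).

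The 7 other brakes on the pathway, phosphatases and adaptors, all had fold changes below 0, with a median of -0.30 and 0 called. They ranged from *Ptpn1*, a phosphatase of *Jak2* and *Tyk2*, at -0.45 (SE 0.22) to *Ptpn11* at -0.03. *Ptpn6*, the most abundant of them per length, had -0.14 (SE 0.21).

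Genes known to follow each STAT or IRF were listed as well. Of 24 type I interferon targets tested, 22 lay below 0, with a median of -0.41 and 0 called. The pair medians were 0.07, -0.92 and -0.62, so that pair 1 did not share the direction. *Rsad2* had -0.77 (SE 0.29, edgeR adjusted p = 0.598), *Cmpk2* -0.73 (SE 0.30) and *Oas2* -0.74 (SE 0.36), while *Ifi44* had 0.45 (SE 0.35). *Ifi27l2a*, the most abundant of them per length, had -0.19 (SE 0.35). Of 21 interferon gamma targets, 18 lay below 0, with a median of -0.23 and pair medians of 0.20, -0.64 and -0.25. *Gbp2* had -0.61 (SE 0.29) and *Ciita*, the master factor of MHC class II genes, -0.59 (SE 0.30), while *Cxcl9* had 0.57 (SE 0.37) and *Cd74*, the most abundant, -0.08 (SE 0.33).

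All 10 STAT3-linked genes lay below 0, with a median of -0.54, pair medians of -0.73, -0.40 and -0.50 and 0 called. *Il1rn*, the IL-1 receptor antagonist, measured 332, 366 and 487 CPM in F4/80high and 547, 551 and 792 CPM in F4/80low, with no overlap, at -0.67 (SE 0.21, edgeR adjusted p = 0.522). *Nfil3* had -0.75 (SE 0.26) and *Pim1*, a kinase gene that both STAT3 and STAT5 are known to induce, -0.77 (SE 0.33). *Zfp36*, the most abundant of the list per length, had -0.36 (SE 0.23). Among the 9 STAT5-linked genes, which also hold *Osm* and *Pim1* but not *Cish* (-0.42), 4 lay above and 5 below 0. *Ccnd3* had -0.68 (SE 0.27) and *Myc* 0.46 (SE 0.22), the latter with each F4/80high library above each F4/80low library, and *Mcl1*, the most abundant per length, had -0.33 (SE 0.25).

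The 16 STAT6-linked genes lay on both sides, 5 above and 11 below 0, with a median of -0.59. None was called with batch, and 2 were called with batch when F4/80high replicate 1 was left out. With the block 3 were called, *Mrc1*, *Chil3* and *Ccl22* (edgeR adjusted p of 0.0272, 0.0253 and 0.0348). *Mrc1*, the mannose receptor, measured 276, 841 and 1313 CPM in F4/80high and 73.5, 254 and 159.7 CPM in F4/80low. Its log2 fold change with batch was 2.18 (SE 0.56), and *Chil3* had -1.82 (SE 0.34) and *Ccl22* -1.55 (SE 0.70). *Tgm2* measured 366, 336 and 647 CPM in F4/80high and 735, 636 and 1346 CPM in F4/80low, with an edgeR adjusted p of 0.0509 in the block fit. Of 10 IRF and STAT partners, 7 lay below 0 (median -0.10), with *Spi1* at -0.32 (SE 0.21). Of 17 sensors, adaptors and kinases upstream of the IRFs, 8 lay above and 9 below 0 (median -0.01), with *Myd88* at -0.47 (SE 0.24) *Ikbke* at 0.52 (SE 0.28) and *Tbk1*, the most abundant per length, at -0.01 (SE 0.26). No gene of these last lists was called with batch or with the block.

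Markers of other cells differed in direction between the subsets. All 10 neutrophil markers were lower in F4/80high by fold change, with summed levels of 2147, 934 and 753 CPM in F4/80high and 4908, 3137 and 1535 CPM in F4/80low, *Retnlg* the most abundant and 6 of them called with the block. All 9 eosinophil markers were lower as well (533, 269 and 179 CPM against 1114, 1519 and 405 CPM, led by *Alox15*), as were all 8 cDC2 markers (263, 149.6 and 788 CPM against 462, 267 and 1027 CPM, led by *Itgax*). The 8 markers of migratory dendritic cells, which include *Socs2* and *Ccl22*, had fold changes below 0 too, as had 7 of 8 monocyte markers. With the block, 1 marker was called in each of the cDC2, migratory dendritic cell and monocyte lists. All 11 T and NK cell markers tested had fold changes above 0, with *Gzmb* the most abundant. Summed levels, which also count *Trac*, a gene of this list that was not tested, were 2095, 613 and 386 CPM in F4/80high. In F4/80low they were 773, 971 and 181 CPM. F4/80high replicate 1 was the highest library, and in pair 2 the sum was lower in F4/80high. Of the 11, 2 had an unadjusted p under 0.05 in the edgeR fit and 0 were called with the block. The antibodies listed by the study for flow cytometry include CD3e, NK1.1, B220 and Ly6G in one color, so a lineage gate on them would remove T, NK and B cells and neutrophils, but the sources used here do not say which of them made up the gate of this sort. *Ly6g* itself measured 4.62, 1.32 and 1.19 CPM in F4/80high and 8.89, 3.98 and 1.48 CPM in F4/80low. *Csf3r* and *Il5ra* themselves belong to the neutrophil and eosinophil lists, and *Il7r* to the T and NK list. Of the macrophage markers, 8 of 10 had fold changes above 0. With the block 4 of them were called, *Mertk*, *C1qa*, *C1qb* and *C1qc*, all higher in F4/80high. In the other lists, fold changes lay below 0 for all 7 mast cell and basophil, all 7 fibroblast and 5 of 7 endothelial markers. They lay above 0 for 7 of 8 plasmacytoid dendritic cell markers (median 0.03) and 5 of 8 B and plasma cell markers (median 0.11). No marker of these 2 lists had an unadjusted p under 0.05 in the edgeR fit. The cDC1 markers split 4 and 4. The 3 melanoma markers tested had fold changes above 0, at summed levels of 19.6, 23.3 and 168 CPM in F4/80high and 15.2, 13.2 and 106 CPM in F4/80low. However, *Mitf* alone made up nearly all of these sums (16.5, 21.6 and 167 CPM against 13.3, 11.4 and 104 CPM). *Pmel* and *Sox10* were below 2 CPM in each library, and *Mlana* had 1 read in all. The part of these cells in the values of the 30 genes was not tested. In bulk RNA, fewer cells of a type and less RNA per cell cannot be told apart.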

How the data were processed

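The authors deposited raw read counts per gene for each library, with gene length and biotype. The aligner, the counting rule and the use of strand are not given in the sources used here, so reads of overlapping genes cannot be told apart. Of the 30 genes, 14 share exon bases with another gene on either strand. Besides *Stat4*, these include *Irf5* (14.1%, with *Tnpo3*), *Tyk2* (8.07%, with *1700084C06Rik*) and *Jak3* (7.55%, with *Insl3*). Of the gene IDs, 99.4% were found in GENCODE M21 (GRCm38). Protein-coding genes by that annotation with at least 10 counts in total (14645) were fitted with edgeR 4.0.16 in R 4.3.3 (TMM, quasi-likelihood, batch and subset), and with DESeq2 1.42.0 as an alternative. The steps were tested on simulated data. CPM used the TMM library size, and pair ratios added 0.5 CPM. TPM used the deposited gene length over the genes tested. At each library's depth 3 counts are 0.0688 to 0.187 CPM.

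Members, gene lists and marker lists were chosen with earlier results of these data known. Members were given in full if they had an unadjusted p under 0.05 or the highest mean TPM of their family, and *Stat2* and *Irf1* for their p in the block fit. From each list, genes came from the 3 smallest p in each direction with a mean of at least 1 CPM, and the most abundant one, apart from 1 gene that is not reported here. *Adgre1*, *Ptpn11* and the markers were named as checks or ends of a range. The study's 3 independent experiments pair same-numbered libraries, and after removal of each subset's mean they correlated at 0.745, 0.727 and 0.903 (10455 genes). Libraries of different number within batch 1 correlated at 0.628 and 0.606, so much of this is shared batch. As tumors were pooled, p-values measure the spread between pools.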

Additional observations from a re-analysis of the deposited data

How the results depend on the processing

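Of the 30 genes, 16 kept the direction of their fold change in all 20 alternatives (other scaling, filters, biotypes, tools and designs, and leaving out libraries) and 14 reversed in at least 1. The cause was not tested. Library size alone gave *Jak1* 0.033 and *Socs1* 0.018. Without the batch term *Jak1* 0.0079, *Tyk2* 0.034, *Stat6* -0.063 and *Pias1* -0.014 were found. Batch 1 alone gave *Stat5a* 0.15, *Stat6* -0.12, *Socs5* 0.053, *Pias3* -0.17 and *Pias4* 0.021. Leaving out 1 library gave -0.14 to 0.14 for *Jak1*, -0.15 to 0.38 for *Jak3*, -0.33 to 0.35 for *Tyk2*, -0.57 to 0.16 for *Stat4*, -0.75 to 0.14 for *Stat5a*, -0.14 to 0.30 for *Stat6*, -0.66 to 0.27 for *Socs1*, -0.025 to 0.63 for *Socs3*, -0.61 to 0.051 for *Socs5*, -0.11 to 0.079 for *Pias1*, -0.17 to 0.58 for *Pias3*, -0.14 to 0.020 for *Pias4*, -0.033 to 0.18 for *Irf3* and -0.51 to 0.21 for *Irf4*. Of the genes that kept their direction, leaving out 1 library gave -0.48 to -0.064 for *Stat3*, -0.58 to -0.11 for *Socs2*, -0.51 to -0.049 for *Socs4*, -1.02 to -0.15 for *Socs7*, -0.94 to -0.043 for *Cish* and -0.57 to -0.16 for *Irf2*. Over all 20 alternatives, *Socs6* ranged from 0.26 to 0.74, *Pias2* from 0.022 to 0.13 and *Irf5* from -0.59 to -0.22. The range was -0.76 to -0.35 for *Stat2*, -0.60 to -0.28 for *Stat5b* and -0.44 to -0.19 for *Irf9*. Leaving out both libraries of 1 number with the replicate block, which was chosen after seeing the data, gave *Jak1* 0.049, *Jak3* -0.079, *Tyk2* 0.26 and *Irf3* -0.038 without number 1, *Stat6* -0.20, *Socs1* 0.16, *Socs3* -0.0072 and *Pias1* -0.16 without number 2, and *Stat5a* 0.12, *Stat6* -0.076, *Socs5* 0.032, *Pias3* -0.17 and *Pias4* 0.020 without number 3.

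Calls among all genes were 150 with DESeq2 and batch, 76 with the replicate block and 356 with DESeq2 and the block, and 0 to 57 when 1 library was left out. Calls among the members were 1 with DESeq2 and the block and 0 otherwise. Members with an unadjusted p under 0.05 numbered 0 without the batch term, 3 with the block, 4 with DESeq2 and the block, and 1 to 8 when 1 library was left out, with 8 if it was F4/80high replicate 1 and 3 if it was F4/80low replicate 2. Calls in the pathway lists numbered 2 with DESeq2 and batch, 3 with the block, 4 with DESeq2 and the block, and 0 to 2 when 1 library was left out. The member median was -0.18 with library size alone, -0.20 without the batch term, -0.23 with all biotypes, -0.15 in batch 1 alone, and -0.42 to -0.073 when 1 library was left out. The lowest came without F4/80high replicate 1 and the highest without F4/80low replicate 1, and each of the others moved it by over 1.5 times too (F4/80high replicate 2 to -0.12, F4/80low replicate 2 to -0.38, and replicate 3 of either subset to -0.15). With replicate 3 of 1 subset left out, the lone library of batch 2 adds nothing to the subset term.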
